A study of Mus musculus with 16 samples.

Results

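The 10 genes described here encode platelet-derived growth factor (PDGF) and fibroblast growth factor (FGF) receptor tyrosine kinases, the related receptor Kit, and 4 of their ligands. They are a list of names: the receptors Pdgfra, Pdgfrb, Kit, Fgfr1, Fgfr2 and Fgfr3, and the ligands Pdgfa, Pdgfb, Pdgfc and Fgf2. They are 10 of the 24982 genes in the count table, and each had reads in at least 1 tumor and was therefore tested. Bulk RNA sequencing was done on 16 rhabdoid tumors, each from a different mouse. All mice were Smarcb1flox/flox;R26-CreERT2, in which a tamoxifen-activated Cre driven from the ubiquitous Rosa26 locus removes the tumor suppressor Smarcb1 in the embryo. The label on tumor location gives 3 groups. The 5 intra-CNS tumors, which the study calls Shh, were all induced at embryonic day 6 (E6) and taken at 30 to 180 days of age. The 6 intracranial extra-CNS tumors (intracranial Myc) were induced at E6 (1 tumor), E7 (1 tumor) or E8 (4 tumors) and taken at 52 to 170 days. The 5 extracranial tumors (extracranial Myc) were induced at E6 (1 tumor) or E8 (4 tumors) and taken at 80 to 210 days. Their labelled sites were the back, jaw, nose and mouth. All groups carry the same alleles, no tissue with intact Smarcb1 was analysed here, and Cre acts in no restricted cell type. The study describes cutting tumors with a scalpel from sections of frozen brains, and no such step for extracranial tumors. The RNA is that of bulk tissue, so it also holds that of host cells.

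Receptor tyrosine kinases of these families sit in the cell membrane, pair up when a ligand binds, and pass the signal on through adaptors to the Ras-MAP kinase and PI3 kinase pathways. PDGFRα, the product of Pdgfra, binds PDGF-A and PDGF-C, both PDGF receptors bind PDGF-B, and Kit binds stem cell factor, the product of Kitl. Fgf2 binds several FGF receptors together with heparan sulfate. In the normal nervous system Pdgfra marks oligodendrocyte precursors and Pdgfrb marks pericytes, and both receptors are used by mesenchymal cells such as fibroblasts. Kit is used by mast cells and melanocytes, and Fgfr3 is prominent in astrocytes.

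Libraries held 17889968 to 110177889 counted reads, with a median of 30905046. Levels are given as TPM, read counts scaled to transcript length and to the total of the library, so that genes can be set side by side within a tumor. Differences are log2 fold changes with a standard error (SE) from the quasi-likelihood test of edgeR on raw counts, and p-values were adjusted for all tested genes together (Benjamini-Hochberg). A gene was called when its adjusted p was under 0.05 and its log2 fold change exceeded 1 in either direction. The TPM of Smarcb1 ran from 3.99 to 58.1 over all tumors, and because the deleted exon is not resolved in a gene total this does not check the deletion. Its highest TPM was in the tumor of mouse 29048 (Shh, 58.1), followed by that of R26P115 (intracranial Myc, 43.7). Both tumors stood apart in other genes. In 29048 the 5 oligodendrocyte markers summed to 5804 TPM, against at most 116 TPM in the other 4 Shh tumors (29050A), and in R26P115 the choroid plexus gene Ttr alone reached 199500 TPM, against at most 4535 TPM (29048) elsewhere. The tumor of 43990A is labelled extracranial, with the nose as its site, while the study's own mouse list places it in the intracranial extra-CNS group. The label is followed here, and the genes described below are given without these tumors where that changed a call.

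Pdgfra and Pdgfrb, the 2 PDGF receptors, were lower in Shh than in Myc tumors, and Pdgfrb did not overlap between the subgroups on normalized counts. In the Shh tumors Pdgfra was at 21.96 TPM (29048), 15.5 (38594A), 105 (29050A), 27.1 (R26P98) and 4.27 (R26P87). In the intracranial Myc tumors it ran from 38.7 to 384 TPM with a median of 168. In the extracranial Myc tumors it was at 32.98 TPM (43825B), 82.8 (43987A), 25.2 (43990A), 88.2 (43998A) and 225 (R26P123). On TPM, 3 of the Shh tumors were below the lowest Myc tumor (43990A), R26P98 was just above it and 29050A was well inside the Myc range. On the normalized counts used for testing, R26P98 (75.4 per 1000000 reads) also lay below 43990A (94.5). The Shh against Myc log2 fold change was -2.50 (SE 0.77, edgeR adjusted p = 0.0205), a 5.64-fold lower fitted level in Shh. Over the 16 fits with 1 tumor left out it ranged from -3.525 to -2.17. The call was lost without the tumor of 29048 (edgeR adjusted p = 0.0516) or of 38594A (adjusted p = 0.0554), and with only the E6 tumors the log2 fold change was -2.22 (adjusted p = 0.180).

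Pdgfrb was at 19.5 TPM (29048), 9.75 (38594A), 11.4 (29050A), 9.81 (R26P98) and 16.3 (R26P87) in the Shh tumors. Intracranial Myc tumors ran from 18.2 to 148 TPM with a median of 29.8. The extracranial Myc tumors were at 23.1 TPM (43825B), 97.9 (43987A), 26.6 (43990A), 210 (43998A) and 505 (R26P123). On the normalized counts used for testing, all 5 Shh tumors lay below all 11 Myc tumors, while on the TPM scale the highest Shh tumor (29048) lay just above the lowest Myc tumor. The Shh against Myc log2 fold change was -3.55 (SE 0.87, edgeR adjusted p = 0.00542), or 11.7-fold lower in Shh. It stayed called without any single tumor, with a range of -3.72 to -2.93, and without both 29048 and R26P115 it was -3.83 (adjusted p = 0.00811). The size was smaller with only the E6 tumors (-1.74, edgeR adjusted p = 0.0139) and on log2(TPM + 1) (-2.13, limma adjusted p = 0.0226).

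Pdgfra, Pdgfrb and Pdgfb were the 3 of 10 genes called between Shh and Myc tumors, all lower in Shh. Of all 21854 genes tested, 26% were called and 13.1% were called lower, so 3 calls of 10 is near the share among all genes. The count was 2 without 29048 or without 38594A, which lost Pdgfra, and 5 without R26P115 (adding Fgf2 and Fgfr3) or without 43990A (adding Fgf2 and Kit). One of the 10 (Pdgfrb) did not overlap between the subgroups, as for 11.2% of all genes tested. The median log2 fold change was -0.43 over the 10 genes and -0.15 over all genes tested. Of the 10, 5 had an unadjusted p under 0.05, as did 44.4% of all genes. With the name scheme of the mice (numbered or R26P) as a covariate the count of called members was again 3. Within the numbered mice the mean log2(TPM + 1) differed between Shh and Myc by -1.49 for Pdgfra, -1.995 for Pdgfrb and -1.02 for Pdgfb. Within the R26P mice, with 2 Shh and 3 Myc tumors, these differences were -3.29, -2.48 and -1.55. The day of tamoxifen is tied to the subgroup, since all Shh tumors were induced at E6 and only 2 Myc tumors were.

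**Figure D1:**
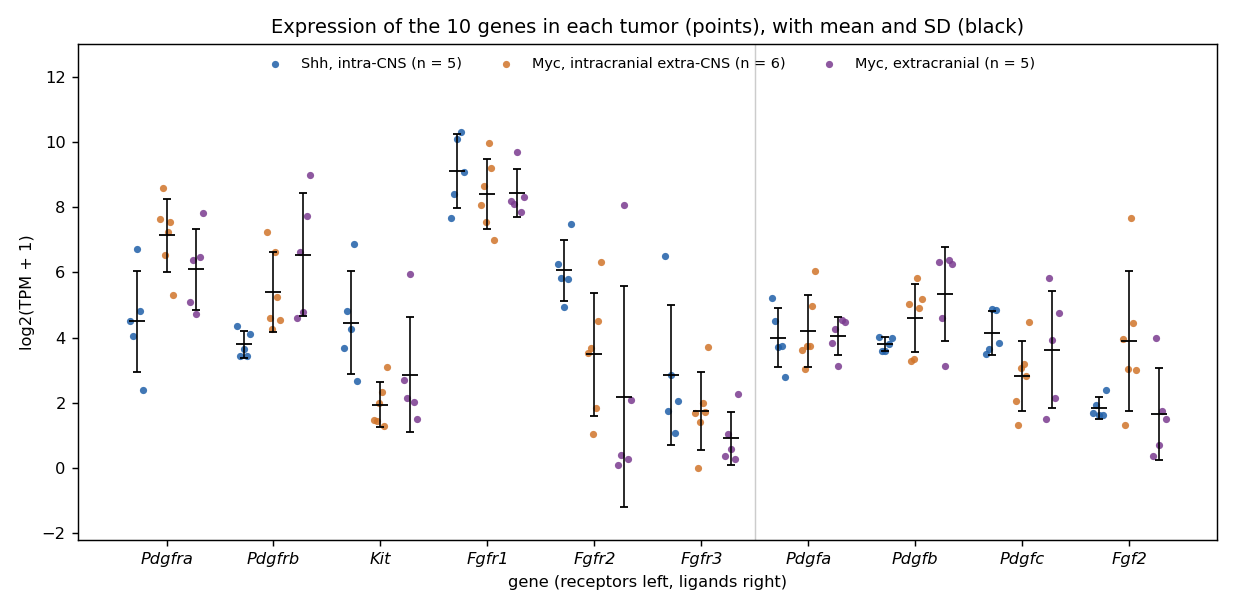
Levels of the 6 receptors and 4 ligands, as log2(TPM + 1), in each of the 16 tumors (points, colored by group), with the mean and SD of each group in black. Fgfr1 is the highest of the 10 in 15 of 16 tumors, Pdgfrb is tight and low in the Shh tumors, and Fgfr2 and Kit each have 1 extracranial Myc tumor (43990A) far above the other 4.

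**Figure D2:**
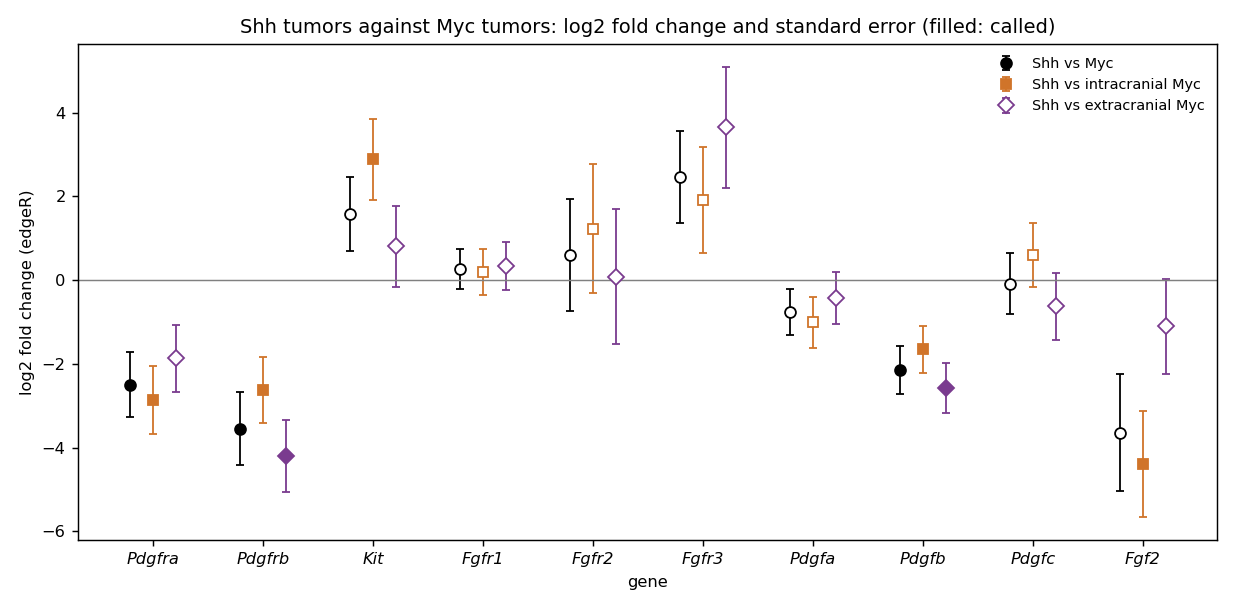
Log2 fold change (edgeR) of each gene in Shh tumors against all Myc, intracranial Myc and extracranial Myc tumors, with its SE as the bar. Filled symbols are called (adjusted p under 0.05 and a log2 fold change over 1 either way): Pdgfra, Pdgfrb and Pdgfb are lower in Shh against all Myc tumors, and the 3 comparisons share the same Shh tumors.

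Beside the 2 PDGF receptors, markers of several cell types also differed between the subgroups. All 5 fibroblast markers and all 5 macrophage markers were called lower in Shh tumors. The fibroblast markers (Col1a1, Col1a2, Col3a1, Dcn and Lum) summed to 101 to 499 TPM in Shh tumors and 507 to 7645 TPM in Myc tumors, and the macrophage markers to 155 to 203 TPM and 223 to 2309 TPM. Of the 8 pericyte and mural markers, 1 was called higher and 1 lower, and their sums overlapped, at 103.9 to 311 TPM in Shh and 92.9 to 275 TPM in Myc tumors. Against extracranial Myc tumors alone, 0 of the 8 were called higher and 2 lower (Cspg4 and Anpep), where 25.0% of all genes were called. Cspg4, a pericyte marker shared with oligodendrocyte precursors, was at 92.7 TPM in 43998A and 96.5 TPM in R26P123, the 2 tumors with the most Pdgfrb, and at most 10.2 TPM elsewhere. Rgs5, another pericyte marker, was lowest of all tumors in 43998A, at 10.2 TPM, and at 19.3 TPM in R26P123. The oligodendrocyte precursor markers (Olig1, Olig2, Sox10 and Gpr17) summed to 12.6 to 347 TPM in Shh tumors and at most 4.67 TPM in Myc tumors, where Pdgfra was higher. The part of these cells in the levels of Pdgfra and Pdgfrb was not tested, and in bulk tissue fewer cells of a type and less RNA per cell cannot be told apart. Bulk RNA also does not tell whether host cells or tumor cells expressed these markers.

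The split between the 2 PDGF receptors differed from tumor to tumor within every group. Pdgfra made up 20.8% to 90.1% of their summed TPM in Shh tumors, with a median of 61.4%. In the intracranial Myc tumors its share was 57.1% to 94.3% with a median of 73.5%, so Pdgfra was the larger of the 2 in all 6. In the extracranial Myc tumors it was 29.5% to 58.8% with a median of 45.8%. The summed TPM of both receptors was 20.5 to 116 in Shh, 60.7 to 407 in intracranial Myc and 51.8 to 730 in extracranial Myc tumors.

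Kit, the receptor for stem cell factor, was at 11.8 TPM (29048), 26.9 (38594A), 18.0 (29050A), 117 (R26P98) and 5.34 (R26P87) in the Shh tumors. Its range in the intracranial Myc tumors was 1.44 to 7.47 TPM, with a median of 2.36. The extracranial Myc tumors were at 5.46 TPM (43825B), 3.44 (43987A), 60.8 (43990A), 3.08 (43998A) and 1.84 (R26P123). The tumor of 43990A was above 4 of 5 Shh tumors, and the other 10 Myc tumors were at 7.47 TPM or less, below 4 of 5 Shh tumors. On the normalized counts used for testing, R26P115 (20.5 per 1000000 reads) lay just above the Shh tumor of 29048 (19.4). Over all Myc tumors the difference was not called (log2 fold change 1.58, SE 0.88, edgeR adjusted p = 0.173), while on log2(TPM + 1) it was 2.10 and was called (limma adjusted p = 0.0298). Without 43990A the log2 fold change was 2.87 and was called (edgeR adjusted p = 0.00161), higher in Shh, while without R26P98, the Shh tumor with the most Kit, it was 0.36. The ligand gene Kitl had a like pattern. It was at 78.3 to 161 TPM in Shh tumors, 1.17 to 6.31 TPM in intracranial Myc tumors, and 1.53 to 155 TPM in extracranial Myc tumors, with the 155 again in 43990A. The Shh against Myc log2 fold change of Kitl was 2.03 (SE 0.96, edgeR adjusted p = 0.111) with 43990A and 4.05 (SE 0.39, adjusted p = 5.8e-06) without it. Against intracranial Myc alone it was 4.14 (SE 0.99, edgeR adjusted p = 0.00614) and was called.

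Mast cells and melanocytes are cell types known for Kit. In the tumors with the most Kit, R26P98 and 43990A, mast cell markers summed to 18.2 and 7.72 TPM. The 18.2 was nearly all Hdc, the histamine-making enzyme (18.1 TPM), and Cpa3, a mast cell protease, was at 0.152 and 1.16 TPM. The 7 mast cell markers summed to at most 18.2 TPM in Shh tumors and at most 95.3 TPM in Myc tumors (29941C), of which Hdc was 94.9 TPM, none of the 7 was called, and Cpa3 was at 0 to 1.34 TPM in every tumor. The 6 melanocyte markers summed to 3.01 to 12.6 TPM in Shh and 3.07 to 78.6 TPM in Myc tumors, and 1 of them, Mitf, was called lower in Shh. Without R26P115, the tumor with the 78.6, Mitf was not called (-1.81, edgeR adjusted p = 0.0530) and Tyrp1 was called higher in Shh (3.34, adjusted p = 0.0465).

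Fgfr1, the FGF receptor that is widely used by neural and mesenchymal cells, was the most abundant of the 10 genes in 15 of 16 tumors, the exception being R26P123, where Pdgfrb was higher. In the Shh tumors it was at 200 TPM (29048), 336 (38594A), 1088 (29050A), 1268 (R26P98) and 536 (R26P87). Among the intracranial Myc tumors it ran from 127 to 991 TPM with a median of 336. The extracranial Myc tumors were at 291 TPM (43825B), 271 (43987A), 832 (43990A), 228 (43998A) and 316 (R26P123). It ranked between place 84 and place 1108 among all genes of a tumor. The groups overlapped widely, and the Shh against Myc log2 fold change was 0.26 (SE 0.47, edgeR adjusted p = 0.689).

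Fgfr2, whose product is a receptor for FGFs of epithelia and mesenchyme depending on the splice form, ran over a wide range. Its TPM in the Shh tumors was 75.5 (29048), 55.8 (38594A), 29.6 (29050A), 54.3 (R26P98) and 179 (R26P87). It ran from 1.08 to 78.8 TPM in the intracranial Myc tumors (the highest in R26P115) with a median of 11.2. In the extracranial Myc tumors it was at 0.0588 TPM (43825B, 3 reads), 0.318 (43987A, 38 reads), 268 (43990A, 19671 reads), 0.208 (43998A, 15 reads) and 3.27 (R26P123, 246 reads). On TPM all Shh tumors were above 9 of the 11 Myc tumors, and 43990A alone exceeded every Shh tumor. On the normalized counts used for testing, the Shh tumor of 29050A (51.4 per 1000000 reads) lay just below the intracranial Myc tumor of R26P170 (53.25). The edgeR fit gave a log2 fold change of 0.59 (SE 1.34, adjusted p = 0.751) for Shh against Myc. On log2(TPM + 1), where limma gives each tumor equal weight, the difference was 3.16 and was called (limma adjusted p = 0.0394). Against the extracranial Myc tumors the edgeR log2 fold change was 0.08 (SE 1.61, adjusted p = 0.993), and without 43990A it was 5.87 (adjusted p = 0.00851). With all tumors on log2(TPM + 1) it was 3.88 and was called (limma adjusted p = 0.0386). Genes of middling or high count were on average higher in Shh on the TPM scale, by a median of 0.47 in log2 over 14803 genes, whereas this median was -0.012 after TMM normalization. Differences taken on the TPM scale are to be read against that shift.

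Fgfr3 was low in nearly all tumors. It was at 89.9 TPM in 29048 and at 2.37 (38594A), 6.22 (29050A), 1.10 (R26P98) and 3.16 (R26P87) in the other Shh tumors. In the intracranial Myc tumors it ran from 0 to 11.99 TPM with a median of 2.27. The value of 0 in 43992A was 0 of 19868824 reads, which allows up to 0.151 counts per 1000000 reads, and the highest value was in R26P115. In the extracranial Myc tumors it was at 0.299 TPM (43825B), 1.04 (43987A), 0.513 (43990A), 0.211 (43998A) and 3.79 (R26P123). The Shh against Myc log2 fold change of 2.46 (SE 1.10, edgeR adjusted p = 0.0940) became -0.20 without 29048, and without R26P115 it was 3.29 and called (adjusted p = 0.0194). The 4 astrocyte markers, a cell type in which Fgfr3 is prominent, summed to 1314 TPM in 29048, the highest of all tumors. The next highest sums were 362 TPM in R26P98, which had the lowest Fgfr3 of the Shh tumors, and 302 TPM in 38594A, and the part of these cells in the Fgfr3 level was not tested. Without both 29048 and R26P115 the log2 fold change was 0.62 (edgeR adjusted p = 0.603).

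Taking the FGF receptors as shares of their summed TPM (Fgfr1, Fgfr2, Fgfr3 and Fgfr4), Fgfr1 made up a median of 84.8% in Shh tumors, 96.5% in intracranial Myc tumors and 99.4% in extracranial Myc tumors. Fgfr2 made up a median of 14.1% in Shh, 3.25% in intracranial Myc and 0.117% in extracranial Myc tumors. The exceptions among the Myc tumors were R26P115, with 36.2% Fgfr2 and 58.2% Fgfr1, and 43990A, with 24.3% Fgfr2 and 75.5% Fgfr1. In 29048, Fgfr3 made up 24.4%, against at most 0.598% in the other 4 Shh tumors. The summed FGF receptor TPM was 369 to 1332 in Shh, 189 to 999 in intracranial Myc and 228 to 1103 in extracranial Myc tumors.

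**Figure D3:**
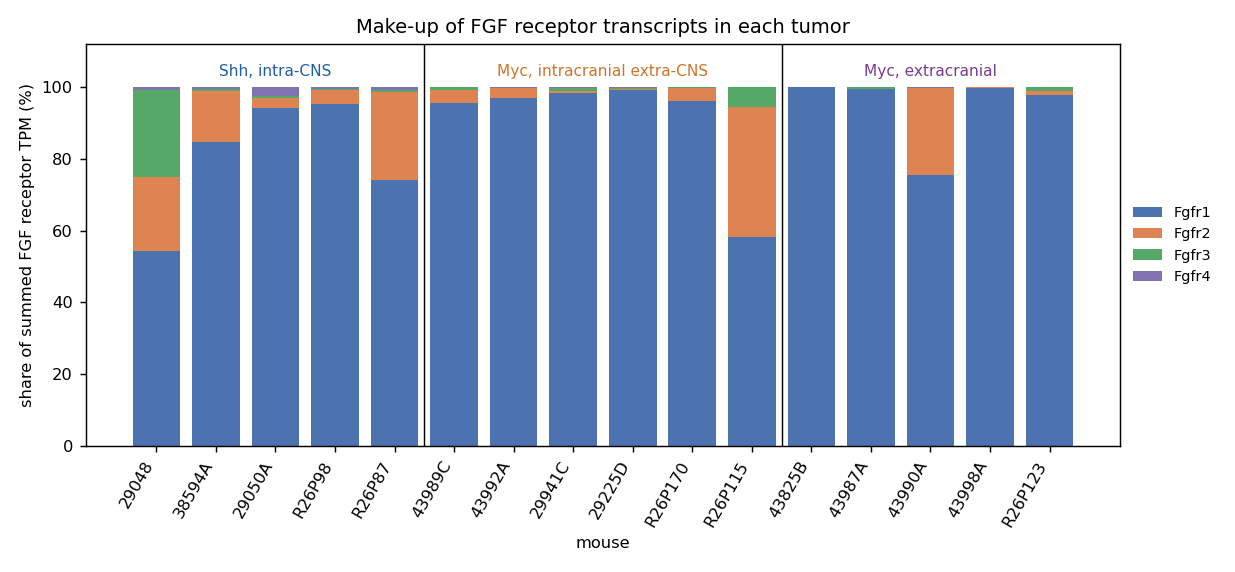
Share (%) of Fgfr1, Fgfr2, Fgfr3 and Fgfr4 in the summed FGF receptor TPM, 1 bar for each tumor, with the 3 groups separated by vertical lines. Fgfr1 is the largest share in every tumor, the share of Fgfr2 is largest in R26P115 (36.2%), R26P87 (24.7%) and 43990A (24.3%), and Fgfr3 is visible in 29048 (24.4%).

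Fgfr2 and Kit each had 1 extracranial tumor, 43990A, far above the other 4, so the sequence before the RefSeq start of each gene is shown. The stretches come from the RefSeq promoter table (assembly GRCm38.p6), 5′ to 3′ on the gene's strand, and bases that GENCODE places in an exon were left out. The Kit stretch is chr5:75574737-75574915 on the plus strand (179 bases, ending 71 bases before the RefSeq start), and the Fgfr2 stretch is chr7:130266809-130267058 on the minus strand (250 bases, ending at the RefSeq start). Capitals mark a GC box (GGGCGG), the sequence bound by Sp1-type factors.

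Kit: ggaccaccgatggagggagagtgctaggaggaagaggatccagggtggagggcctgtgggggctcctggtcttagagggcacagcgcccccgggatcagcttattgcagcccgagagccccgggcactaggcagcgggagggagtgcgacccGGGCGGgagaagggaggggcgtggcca

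Fgfr2: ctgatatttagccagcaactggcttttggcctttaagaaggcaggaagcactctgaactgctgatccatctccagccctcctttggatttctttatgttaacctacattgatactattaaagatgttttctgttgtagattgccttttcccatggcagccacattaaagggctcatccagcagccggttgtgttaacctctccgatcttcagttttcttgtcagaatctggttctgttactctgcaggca

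The 2 stretches differ in base composition: that of Kit is 69.3% G or C with 10 CpG dinucleotides, and that of Fgfr2 is 44.0% G or C with 2. Over the whole 250 bases before the RefSeq start, Kit has 70.8% G or C and 17 CpG. Among 32851 such windows in the table, the median was 52.4% G or C and 6 CpG. The letters GGGCGG, searched on both strands, were in the window of Kit and not in that of Fgfr2, and 32.7% of all windows held them. The E-box CACGTG, the motif of Myc-family factors, was in no window of the 7 genes with an entry (Fgf2, Pdgfc, Fgfr3, Pdgfra, Kit, Pdgfa and Fgfr2) and in 6.02% of all windows. The TATA box TATAAA was likewise in none of the 7 and in 12.4% of all windows. GGGCGG was also in the windows of Fgf2, Fgfr3 and Pdgfa.

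The genes lie on 6 chromosomes (GRCm38, GENCODE, all annotated as protein coding). Pdgfra (chr5:75152292-75198215) and Kit (chr5:75574916-75656722) are neighbours on chromosome 5 with 377 kb between them, both on the plus strand. Pdgfa (chr5:138976014-138997370) and Fgfr3 (chr5:33721674-33737068) are elsewhere on chromosome 5. Fgf2 (chr3:37348346-37410108) and Pdgfc (chr3:81036416-81214040) are on chromosome 3, Pdgfb (chr15:79995874-80014977) on chromosome 15, Fgfr1 (chr8:25513654-25575718) on chromosome 8 and Pdgfrb (chr18:61045150-61085061) on chromosome 18. Fgfr2 is on the minus strand of chromosome 7, from 130162451 to 133123350 in GENCODE and to 130266808 in RefSeq, so that the stretch printed for it lies before the RefSeq start but inside the longer GENCODE gene.

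Among the neighbours of Pdgfra and Kit, Gsx2, a homeobox gene of the ventral forebrain that ends 74 kb before Pdgfra, was called higher in Shh tumors (log2 fold change 4.32, SE 1.35, edgeR adjusted p = 0.0217). It was at 0.133 to 21.1 TPM in Shh and at most 1.47 TPM in Myc tumors. The Shh tumors of R26P87 (2 reads) and 29048 (1.02 TPM) were inside the Myc range. Against either Myc site alone Gsx2 was not called (edgeR adjusted p = 0.0541 and 0.112). Srd5a3, an enzyme of dolichol synthesis, was called lower (log2 fold change -1.25, SE 0.16, edgeR adjusted p = 3.6e-05). Lnx1, Chic2 and Kdr were not called.

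Of the 4 ligands, 1 was called between Shh and Myc tumors, Pdgfb, which is near the 26% of all genes. Its product, PDGF-B, binds both PDGF receptors. Pdgfb was at 15.1 TPM (29048), 10.99 (38594A), 10.97 (29050A), 12.9 (R26P98) and 15.0 (R26P87) in the Shh tumors. It ran from 8.79 to 55.9 TPM in the intracranial Myc group, with a median of 30.3. The extracranial Myc tumors were at 78.8 TPM (43825B), 23.5 (43987A), 7.69 (43990A), 82.9 (43998A) and 75.5 (R26P123). The Shh levels were tight, and 8 of 11 Myc tumors were above them. The Shh against Myc log2 fold change was -2.15 (SE 0.58, edgeR adjusted p = 0.00961), 4.43-fold lower in Shh, and on log2(TPM + 1) it was -1.14 and not called (limma adjusted p = 0.109). Platelet markers, from a cell rich in PDGF-B, were also lower in Shh tumors (3 of 4 called) and summed to 2.53 to 10.8 TPM in Shh and 20.7 to 384 TPM in Myc tumors. Of the 384 TPM, 371 TPM were Pf4, a gene that macrophages also express, while over all Myc tumors Ppbp was at most 9.92 TPM, Itga2b at most 24.2 TPM and Gp9 at most 1.04 TPM. Their part in the Pdgfb level was not tested.

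Pdgfa was at 35.8 TPM (29048), 21.9 (38594A), 12.1 (29050A), 12.4 (R26P98) and 5.93 (R26P87) in the Shh tumors. It ran from 7.25 to 64.8 TPM in the intracranial Myc tumors (highest in R26P115) and from 7.65 to 22.2 TPM in the extracranial Myc tumors (median 18.0). The groups overlapped, with a Shh against Myc log2 fold change of -0.77 (SE 0.55, edgeR adjusted p = 0.286). Within the numbered mice the mean log2(TPM + 1) differed by 0.74 (Shh minus Myc), and within the R26P mice by -1.90. The interaction of subgroup and name scheme had an unadjusted p of 0.00225 and an adjusted p of 0.370 in edgeR, and no gene of all those tested passed at an adjusted p under 0.05.

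Pdgfc was at 10.2 TPM (29048), 11.7 (38594A), 28.1 (29050A), 27.8 (R26P98) and 13.2 (R26P87) in the Shh tumors. The intracranial Myc tumors ran from 1.47 to 21.5 TPM with a median of 6.72, and the extracranial Myc tumors from 1.84 to 55.2 TPM with a median of 14.1. On TPM the lowest Shh tumor was above 7 Myc tumors, but 43987A (55.2 TPM) was above every Shh tumor. On the normalized counts used for testing, R26P123 (40.3 per 1000000 reads) and R26P115 (40.7) were also above the highest Shh tumor (29050A, 32.7). There 29225D (12.3) was above the lowest Shh tumor (29048, 11.6). The log2 fold change was -0.09 (SE 0.72, edgeR adjusted p = 0.937) and its sign changed with the setting, for example to 0.95 on log2(TPM + 1).

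Fgf2 was at 2.20 TPM (29048), 2.78 (38594A), 2.08 (29050A), 2.07 (R26P98) and 4.30 (R26P87) in the Shh tumors, from 13 to 37 reads. The intracranial Myc tumors ran from 1.48 to 201 TPM with a median of 10.8, the 201 being in 29225D. The extracranial Myc tumors were at 0.302 TPM (43825B, 2 reads), 14.9 (43987A), 0.630 (43990A), 2.34 (43998A) and 1.84 (R26P123). The Shh levels lay within the Myc range. For Shh against Myc the log2 fold change was -3.64 (SE 1.39, edgeR adjusted p = 0.0543), outside the threshold, and DESeq2 gave -1.87 and called it (DESeq2 adjusted p = 0.0284). It was called lower in Shh without R26P115 (-3.74, edgeR adjusted p = 0.0484) and without 43990A (-3.78, adjusted p = 0.0395), and likewise without any 1 of 43825B, 43992A, 43998A and R26P123. Over all 16 fits with 1 tumor left out it ranged from -3.87 to -1.94, the latter without 29225D.

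Ordered by median TPM, the Shh tumors ran from Fgfr1 (536) through Fgfr2 (55.8), Pdgfra (21.96), Kit (18.0), Pdgfc (13.2), Pdgfb (12.9), Pdgfa (12.4), Pdgfrb (11.4) and Fgfr3 (3.16) to Fgf2 (2.20). Fgfr1 was above Fgfr2 in 5 of 5 Shh tumors without overlap, and every later pair of neighbours overlapped. In the intracranial Myc tumors the order began with Fgfr1 (336), Pdgfra (168), Pdgfb (30.3) and Pdgfrb (29.8) and ended with Kit (2.36) and Fgfr3 (2.27). In the extracranial Myc tumors it began with Fgfr1 (291), Pdgfrb (97.9), Pdgfra (82.8) and Pdgfb (75.5) and ended with Fgfr3 (0.513) and Fgfr2 (0.318). Within the Myc groups all neighbours in the order overlapped. Fgfr2 thus held place 2 in Shh and the last place in extracranial Myc tumors.

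The comparison of Shh with each Myc site used the same 5 Shh tumors, so the results are set side by side only. Against intracranial Myc, 5 of the 10 genes were called, where 23.0% of all genes were. Pdgfra (log2 fold change -2.87, SE 0.81, edgeR adjusted p = 0.0158), Pdgfrb (-2.63, SE 0.78, adjusted p = 0.0212), Pdgfb (-1.66, SE 0.57, adjusted p = 0.0406) and Fgf2 (-4.40, SE 1.26, adjusted p = 0.0175) were lower in Shh. Kit was higher (2.89, SE 0.97, edgeR adjusted p = 0.0365). Calls were lost when single tumors were left out: Pdgfb in 9 and Kit in 7 of 16 such fits. Over these fits Pdgfb ranged from -1.845 to -1.40 and Kit from 1.67 (without R26P98) to 3.42. The call of Pdgfrb was lost without 38594A (-2.53, edgeR adjusted p = 0.0522) and that of Fgf2 without 29225D (-2.465, edgeR adjusted p = 0.0682). The call of Kit was also lost with the name scheme as a covariate (edgeR adjusted p = 0.0537) and with 43990A counted as intracranial (1.17, adjusted p = 0.370), and that of Pdgfb without both 29048 and R26P115 (adjusted p = 0.0836). With only the E6 tumors, which include 1 intracranial Myc tumor whose spread is taken from the other tumors, the calls of Pdgfra (-2.98, edgeR adjusted p = 0.191) and Kit (4.12, adjusted p = 0.286) were lost. On log2(TPM + 1), limma called 2 of the 10, Pdgfra and Kit. Between 2 and 5 genes were called over the 16 fits, with 2 without 38594A and without 29225D and 3 without 43989C, R26P98 or R26P170.

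Against extracranial Myc, 2 of the 10 were called, where 25.0% of all genes were. Pdgfrb had a log2 fold change of -4.19 (SE 0.86, edgeR adjusted p = 0.00226), or 18.3-fold lower in Shh. With 1 tumor left out it ranged from -4.47 to -3.30. Pdgfb had a log2 fold change of -2.58 (SE 0.61, edgeR adjusted p = 0.00531). Among the E6 tumors, which include 1 extracranial tumor whose spread is taken from the others, Pdgfrb was at -1.40 and not called (edgeR adjusted p = 0.0677). On log2(TPM + 1) Pdgfb was at -1.55 and not called (limma adjusted p = 0.0683). Pdgfra had a log2 fold change of -1.87 (SE 0.79) and an edgeR adjusted p of 0.0883, and it was called lower by DESeq2 (adjusted p = 0.0373) and by edgeR without 29050A (-2.90, adjusted p = 0.0146). Without 43990A the count of called genes was 4, adding Fgfr2 (5.87, adjusted p = 0.00851) and Kit (2.85, edgeR adjusted p = 0.0205), both higher in Shh.

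Between intracranial and extracranial Myc tumors, edgeR called none of the 10 genes and 1 of 21261 genes tested (0.00470%). An unadjusted p under 0.05 was found for 2 of the 10 and for 12.3% of all genes. Fgf2 had a log2 fold change of 3.28 (SE 1.37, unadjusted p = 0.0349, edgeR adjusted p = 0.381) and Kit one of -2.09 (SE 0.91, unadjusted p = 0.0408, edgeR adjusted p = 0.391). DESeq2 called 490 genes and none of the 10, and limma called 1 gene and none of the 10. Pdgfrb had a log2 fold change of -1.56 (SE 0.83, edgeR adjusted p = 0.464). Pdgfra had a log2 fold change of 0.98 (SE 0.64, edgeR adjusted p = 0.536). The sign for Fgfr2 rested on 43990A: the log2 fold change was -1.16 (SE 1.77) with it and 4.60 without it. Counting 43990A as intracranial gave 5.90 for Fgfr2 (edgeR adjusted p = 0.335).

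Between Myc tumors induced at E8 (8 tumors) and at E6 or E7 (3 tumors), edgeR called none of the 10 genes and 0 of 21261 genes (0.00%), with 3.51% of genes and 1 of the 10 at an unadjusted p under 0.05. That gene was Fgf2, with a log2 fold change of -3.43 (SE 1.19, unadjusted p = 0.0143, edgeR adjusted p = 0.908), and without 29225D it was -0.72. DESeq2 called 39 genes and none of the 10, and limma called 0.

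Receptors were next set beside ligands across the 11 Myc tumors, on log2(TPM + 1). The Shh tumors were left out because the subgroups form separate clusters, and these correlations are descriptions of 11 tumors with no test. Kit and Kitl had a Pearson r of 0.907 and a Spearman rho of 0.664, and without the 2 tumors farthest from the median of Kit (43990A and R26P115) the r was 0.656. Pdgfrb and Pdgfb had an r of 0.606 and a rho of 0.409, and without R26P123 and 43998A the r was 0.364, so much of the relation rested on those 2 tumors. Pdgfra had an r of -0.173 with Pdgfa and -0.242 with Pdgfc (rho -0.173 and -0.273), and without 43992A and 43990A these became -0.287 and 0.0682. Fgfr1 and Fgf2 had an r of 0.304 and a rho of 0.0455, with 0.051 without 29225D and 43990A. Between the receptors, Pdgfra and Pdgfrb had an r of 0.403 (rho 0.373), and 0.636 without 43992A and 43990A. Pdgfra and its chromosomal neighbour Kit ran opposite to each other, with an r of -0.791 and a rho of -0.873, and -0.882 without 43992A and 43990A.

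**Figure D4:**
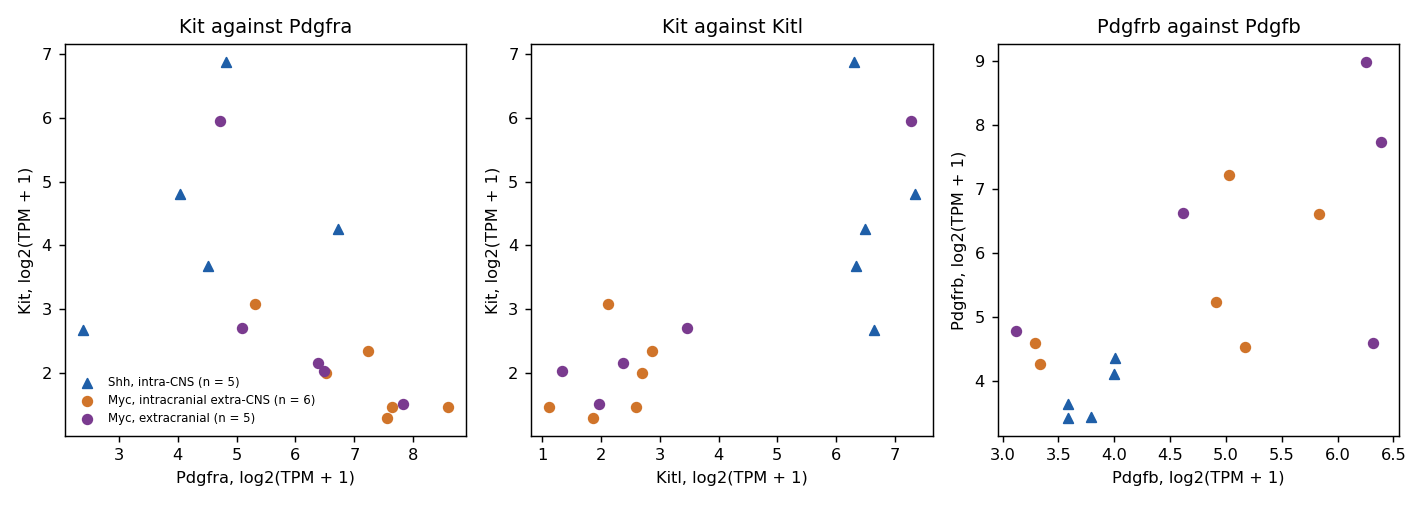
Each point is 1 tumor, as log2(TPM + 1): Kit against Pdgfra (left), Kit against its ligand gene Kitl (middle) and Pdgfrb against Pdgfb (right), with triangles for Shh and circles for Myc tumors. Among the 11 Myc tumors Kit is lower where Pdgfra is higher (r = -0.791), and the 1 Myc tumor with high Kit and Kitl is 43990A.

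For each gene the 3 genes of most similar level over the 11 Myc tumors were taken from the 14803 genes whose mean count reached 50. Being the highest of so many, their r is large by choice, and they are given as a description. Pdgfra was nearest to Arrdc3 (r = 0.943), Igf2bp2 (0.926) and Pdlim1 (0.924). Pdgfrb was nearest to Srpx2 (0.912), a secreted matrix protein, Slc6a7 (0.898) and Grin2d (0.885), an NMDA receptor subunit. Kit was nearest to Zfp763 (0.949), Cmc4 (0.939) and Sardh (0.937), and for Sardh the r was 0.349 without the 2 farthest tumors. Fgfr1 was nearest to Usp31 (0.944), Chmp7 (0.934) and Raly (0.897). Fgfr2 was nearest to Hunk (0.941), Entpd3 (0.929) and Gsta3 (0.920), and Fgfr3 to Hspb8 (0.948), the noncoding Sox2ot (0.940) and Fxyd1 (0.934). Among the ligands, Pdgfa was near to Pbxip1 (0.976) and Farp2 (0.971), and Pdgfb nearest to Mtmr6 (0.910), 2010111I01Rik (0.893) and the tetraspanin Cd9 (0.887). Pdgfc was nearest to Rbm4b (0.882), the coagulation factor gene F8 (0.866) and Armh4 (0.854), and Fgf2 to Rimbp2 (0.946), Ypel2 (0.945) and Ntsr2 (0.926), a neurotensin receptor.

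Of the other 21 FGF ligands, 8 were called higher in Shh tumors, where 12.9% of all genes were, 0 lower and 13 were not called. The count higher was 7 without 29048, where Fgf9 was not called (1.35, edgeR adjusted p = 0.306), 8 without R26P115 and 9 without 43990A, adding Fgf22. Their median log2 fold change was 1.45, or 2.24 over the 19 that exceeded 3 reads in some tumor, against -0.15 over all genes tested. Fgf8, the organizer signal of the midbrain-hindbrain boundary, had 14 to 1233 reads in the Shh tumors and 0 to 3 reads in the Myc tumors (edgeR adjusted p = 9.9e-05), so no fold is given. Of the intracellular FGF homologues that modulate ion channels, 3 were also higher and the other, Fgf11, was not called. Fgf13 had a log2 fold change of 4.52 (SE 0.62, edgeR adjusted p = 7.3e-05), with 6.78 to 85.5 TPM in Shh and 0.109 to 4.25 TPM in Myc tumors. Fgf12 had one of 4.27 (SE 0.95, edgeR adjusted p = 0.00260), and Fgf14 one of 4.01 (SE 0.71, edgeR adjusted p = 0.000505), from 13.4 to 27.8 TPM in Shh and at most 3.66 TPM in Myc tumors. The other 4 called were Fgf3, Fgf9, Fgf17 and Fgf20, of which Fgf20 had at most 8 and Fgf3 at most 33 reads in any tumor. The 3 neuron markers summed to 52.4 to 2597 TPM in Shh and 7.95 to 254 TPM in Myc tumors, with 1 of the 3 called higher in Shh, and their part in these ligand levels was not tested. Fgf1 reached 637 TPM in 1 extracranial Myc tumor, but its groups overlapped and it was not called.

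Among 9 FGF coreceptors and binding proteins, 2 were called higher and 1 lower in Shh (26% of all genes were called), with a median log2 fold change of 1.14. Fgfr4, the remaining FGF receptor, had a log2 fold change of 3.77 (SE 0.86, edgeR adjusted p = 0.00317), at 2.02 to 29.4 TPM in Shh and 0.0235 to 2.64 TPM in Myc tumors. Fgfbp3, a secreted carrier of FGFs, had one of 3.19 (SE 0.57, edgeR adjusted p = 0.000531). Fgfbp1, of the same family, had one of -4.40 (SE 1.38, edgeR adjusted p = 0.0222). Kl, the klotho coreceptor of hormone-like FGFs and a choroid plexus gene, reached 1766 TPM in the tumor of R26P115 and was not called, while without that tumor it was called higher in Shh, as was Flrt3. Flrt1 was called higher without 43990A.

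Of 7 further members and ligands of the class III receptor family, 0 were called higher and 2 lower in Shh (26% of all genes were called), with a median log2 fold change of -1.50. These were Csf1 (log2 fold change -2.86, SE 0.72, edgeR adjusted p = 0.00650) and its receptor gene Csf1r (-2.24, SE 0.52, edgeR adjusted p = 0.00383), which macrophages carry and which was lower along with the other 4 macrophage markers. Pdgfd, Flt3, Flt3l and Il34 were not called, nor was Kitl with 43990A included. Without R26P115 the median was 0.032.

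Of 19 feedback and target genes of the Ras-MAP kinase pathway, 1 was called higher and 5 lower in Shh tumors, where 26% of all genes were called, with a median log2 fold change of -0.25. Fosl1, an AP-1 subunit, had a log2 fold change of -7.38 (SE 1.08, edgeR adjusted p = 0.000117), with 4 to 15 reads in the Shh and 17 to 10195 reads in the Myc tumors. Dusp5, a phosphatase of nuclear ERK, had one of -4.76 (SE 0.85, edgeR adjusted p = 0.000530), and Ier3, an immediate early gene, one of -4.48 (SE 0.70, edgeR adjusted p = 0.000183). Etv1, an ETS factor induced by FGF signals, was called higher (2.60, SE 0.50, edgeR adjusted p = 0.000959) and did not overlap, at 14.8 to 46.2 TPM in Shh and 0.353 to 6.23 TPM in Myc tumors. Egr1 (-2.37) and Il17rd (-2.08), named after their values were seen, were the other 2 called lower. Among the 13 genes of the list that were not called were Spry1 (-0.12), Spry2 (0.03), Spry4 (-1.81), Dusp6 (0.47), Etv4 (0.14) and Etv5 (-0.25), also named after their values were seen. Each of these 6 had an edgeR adjusted p above 0.05, from 0.0605 for Spry4 to 0.974 for Spry2. Without R26P115 or without 43990A, Spry4 was called lower, without R26P115 so was Fos, and without 29048 Il17rd was not called.

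Among 13 adaptors and effectors, 1 was called in each direction, where 26% of all genes were called, and the median log2 fold change was -0.026. The count higher was 2 without 29048 (adding Plcg1) and 3 without R26P115 (adding Plcg1 and Pik3r1). Frs3, a docking protein of FGF receptors, was higher (log2 fold change 1.72, SE 0.36, edgeR adjusted p = 0.00189). Shc1, an adaptor of many receptor tyrosine kinases, was lower (-2.91, SE 0.40, edgeR adjusted p = 7.5e-05), at 27.0 to 60.4 TPM in Shh and 48.4 to 457 TPM in Myc tumors.

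**Figure D5:**
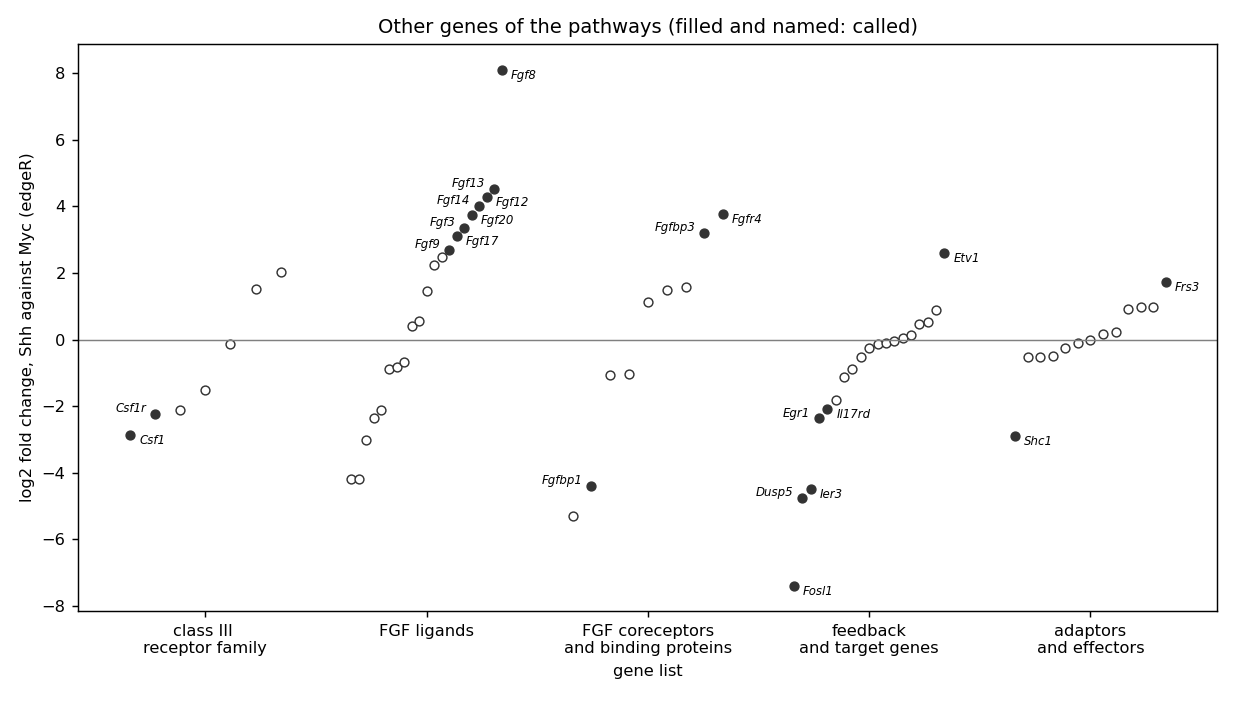
Log2 fold change (edgeR, Shh against all Myc tumors) of the genes of 5 pathway lists, 1 point per gene sorted by value within its list. Filled and named points are called: 8 of the 21 FGF ligands, all higher in Shh, and 6 of the 19 feedback and target genes, 5 of them lower, where 26% of all genes were called. The fitted value of Fgf8, with at most 3 reads in any Myc tumor, depends on the prior count and is no estimate of a fold.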

How the data were processed

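Poly(A) RNA of 16 mouse tumors was sequenced as paired reads. Per the labels and the study's methods, the authors trimmed reads with Trim Galore, checked them with FastQC and Picard and aligned them to mm10 with STAR 2.5.3a. The deposited count table holds whole-number read counts per gene symbol (24982 genes), and the deposited TPM table holds TPM by the authors (24951 genes). Of the ratios of count to TPM at counts of at least 50, 100% agreed within 5% for a gene after library scaling. Totals of 17889968 to 110177889 reads per tumor limit the precision of low genes, and floors of 3 reads cover counting error only.

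Groups follow the label on tumor location, and the subgroup names follow the study's mouse list. Genes with a count of 0 in all tumors used were dropped. Counts were tested with edgeR 4.0.16 (TMM, glmQLFit and glmQLFTest, R 4.3.3), and p-values were adjusted together for all tested genes by Benjamini and Hochberg's method. Genes were called at an adjusted p under 0.05 if the log2 fold change was over 1 in size. Shh against all Myc tumors was fitted over 2 groups, Shh against each Myc site over 3 groups, and sites and induction days over the 11 Myc tumors. Alternatives were DESeq2 1.42.0, limma 3.58.1 on log2(TPM + 1), DESeq2 size factors, filterByExpr, no fold threshold, the name scheme as a covariate, E6 tumors only, 43990A as intracranial, and each tumor left out. Fits without pairs of doubtful tumors, and list counts without each of them, were chosen after seeing the data. The script was tested on simulated data. Each tumor is from a different mouse, so p-values measure the spread between mice.

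The members and lists were chosen with earlier results of these data known. Named are the 10 members, from each list up to 4 called genes of largest change (Shh against Myc, mean count of at least 50), and for each member the 3 genes of highest r over the Myc tumors, of which 1 is not reported here. Cell type marker lists were pericyte and mural, fibroblast, endothelial, oligodendrocyte precursor, oligodendrocyte, astrocyte, mast cell, melanocyte, macrophage, platelet and neuron. Between Shh and Myc tumors 1 of 6 endothelial markers was called lower, 5 of 5 oligodendrocyte, 3 of 4 oligodendrocyte precursor, 1 of 4 astrocyte and 1 of 3 neuron markers higher. Without 29048, 0 endothelial, 0 oligodendrocyte and 0 astrocyte markers were called, and without R26P115 the astrocyte count was 2. Coordinates are from GENCODE M21 (GRCm38) and promoters from RefSeq (GRCm38.p6), where 7 of the 10 members matched. Reads of genes that share sequence or overlap cannot be separated here.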

Additional observations from a re-analysis of the deposited data

Results flagged for a closer look

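Within groups of 4 to 10 tumors, single tumors far from the rest of their group were looked for with Dixon's test at its 95% critical value, on log2 TPM for levels and on percentages for shares. Chance flags about 1 in 20 such groups, and 9 of 42 were flagged, in 3 tumors. The FGF receptor shares of a tumor depend on each other and on its levels, so these flags are not separate and cannot be set against that rate. In the extracranial Myc group the tumor of 43990A stood above the other 4 for Fgfr1 (832.4 TPM), Fgfr2 (268.5 TPM) and Kit (60.82 TPM), and its FGF receptor TPM was 75.49% Fgfr1 and 24.35% Fgfr2, where the other 4 were nearly all Fgfr1. The group of this tumor differs between the label and the study's mouse list, and without it Kit was called higher in Shh than in Myc tumors. In the intracranial Myc group the tumor of R26P115 stood apart with 58.23% Fgfr1, 36.16% Fgfr2 and 5.501% Fgfr3 of FGF receptor TPM, and it also held 199500 TPM of Ttr. In the Shh group the tumor of 29048 stood apart with 24.35% Fgfr3, and it held the highest sums of oligodendrocyte, astrocyte and neuron markers (5804, 1314 and 2597 TPM). The part of these markers in the shares was not tested.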

How the results depend on the processing

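No paired analysis was possible because the labels number no replicates and no mouse gave more than 1 tumor. Of the members' log2 fold changes under settings other than leaving out 1 tumor, 358 kept direction and call, 12 lost a call, 10 gained one and 20 changed sign. When each tumor was left out in turn these were 638, 20, 13 and 29. The cause of these changes was not tested. The depth limits Fgf2, Fgfr2 and Fgfr3, which had 0 to 3 reads in single tumors.

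With the E6 tumors only, fewer tumors gave 3533 calls over all genes for Shh against Myc (5689 in the full fit), 1700 with 3 members for Shh against intracranial Myc (5034 and 5) and 3115 for Shh against extracranial Myc (5466). There Pdgfc was at 1.64 and 2.71 (Shh against Myc and against extracranial Myc), Fgf2 at 2.51 against extracranial Myc and Fgfr1 at -0.29 against intracranial Myc. DESeq2 called 490 genes between Myc sites and 39 between days, where edgeR called 1 and 0, and gave -0.091 for Kit by day. On log2(TPM + 1) with limma, 2 members were called for Shh against intracranial Myc. Signs changed there for Pdgfc (0.95 against Myc, 0.51 against extracranial Myc), Fgf2 (0.18 against extracranial Myc), Fgfr1 (-0.023) and Fgfr2 (1.30) between sites, and Pdgfa (-0.083) by day. The name scheme as a covariate changed the sign of Pdgfa between sites (-0.14), Fgfr2 against extracranial Myc (-0.66) and Fgfr3 by day (-0.12), and within the R26P mice the mean log2 difference of Fgfr3 was -0.9993. With 43990A as intracranial, Fgfr2 was at 5.90 and Kit at 1.66 between sites and Fgfr2 at -0.047 against intracranial Myc. Without 29048 and R26P115, Pdgfc was at 0.19 against Myc. Without R26P115 and 43990A, Pdgfa was at -0.37 and Fgfr2 at 3.38 between sites. Without 29048 and 43990A, 4 members were called against extracranial Myc. Without the 2 tumors farthest from the median, r was 0.0682 for Pdgfra and Pdgfc, 0.364 for Pdgfrb and Pdgfb, and 0.656 for Kit and Kitl.

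When each tumor was left out in turn, called members numbered 2 to 5 for Shh against Myc (5 without 43990A or R26P115), 2 to 5 against intracranial Myc and 2 to 4 against extracranial Myc (4 without 43990A), and all called genes 0 to 3 between sites and 0 to 1 by day. The log2 fold changes that changed sign ranged, for Shh against Myc, from -0.31 to 0.44 for Pdgfc, -0.089 to 0.50 for Fgfr1 and -0.20 to 3.29 for Fgfr3. For Shh against intracranial Myc the ranges were -0.15 to 0.58 for Fgfr1 and -0.75 to 3.00 for Fgfr3. For Shh against extracranial Myc they were -1.40 to 0.53 for Fgf2, -0.0069 to 0.80 for Fgfr1, -0.47 to 5.87 for Fgfr2, -0.42 to 2.85 for Kit and -0.92 to 0.23 for Pdgfc. Between sites they were -0.23 to 0.57 for Fgfr1, -2.37 to 4.60 for Fgfr2 and -0.18 to 0.75 for Pdgfa, and by day -0.44 to 1.15 for Fgfr3, -0.13 to 1.95 for Kit, -0.35 to 0.79 for Pdgfa and -0.17 to 0.74 for Pdgfra.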
